A study of Rattus norvegicus with 120 samples.

Results

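Expression in the eye was compared between rats whose sample title carries the code L18 and rats that carry any other L code. The titles put 11 of the 120 arrays in L18 and all others in 21 further L codes, and the 31042 probe sets that are not controls were all compared. Every animal was a male of 12 weeks from the F2 generation of an intercross of the inbred strains SR/JrHsd and SHRSP, and the L18 rats and the others share this cross, sex, age and tissue. Each Affymetrix array carried the pooled RNA of the left and right eye of 1 rat, and no array was repeated, so the spread between arrays joins the difference between animals with the error of 1 measurement. The series was designed to map genetic loci behind transcript levels (expression quantitative trait loci), and genotypes were not used here. The labels do not say what an L code is. It runs with the animal numbers, which are 88 to 98 in L18, and the other codes hold between 2 and 8 arrays each.

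The titles also carry 10 S codes, which the labels do not explain. The titles of S1 to S5 hold a date as well, those of S6 to S10 none. The titles mark 3 arrays as rescanned, and 1 of them is in L18, that of animal 90 in S7. L18 had 1 array each in S5, S6 and S7, 2 each in S8 and S9, and 4 in S10. Beside them stood 11, 11, 11, 10, 10 and 9 arrays of other L codes. The other L codes also filled S1 to S4, where L18 had no array. Levels are given below on the log2 scale after S code means were subtracted and the overall mean restored, and a difference is always L18 minus the other L codes with the S code as covariate.

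The eye of a rat joins several tissues in 1 extract. Photoreceptors of the retina turn light into a neural signal through the opsins, transducin and phosphodiesterase, and lens fibres fill themselves with crystallins. Dopamine is released in the retina in the light and acts through receptors on photoreceptors and inner neurons, and retinal clock genes set much of this daily cycle. In such a bulk extract, fewer cells of a type and less RNA per cell cannot be told apart.

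The tissue markers were high in both groups and close to each other. The lens crystallin Cryaa averaged 14.09 ± 0.06 in L18 and 14.12 ± 0.10 in the other L codes (SD over 11 L18 arrays and over all the others). Rod arrestin Sag averaged 13.31 ± 0.09 in L18 and 13.35 ± 0.08 in the others. Corneal keratin Krt12 averaged 13.17 ± 0.06 in L18 and 13.18 ± 0.06 in the others, and scleral collagen Col1a1 12.19 ± 0.12 in L18 and 12.19 ± 0.15 in the others. The actin 3' to 5' difference, a measure of RNA integrity, ran from 0.84 through a median of 1.24 to 1.51 in L18 and from 0.80 through 1.16 to 1.72 in the other L codes (two-sided permutation of the L18 label within S codes, p = 0.853). Over 12 such measures of the arrays, adjusted permutation p-values were between 0.622 and 0.951. The L18 array least like the rest was that of animal 92, whose median correlation with the other arrays was 0.980.

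Few probe sets separated L18 from the other L codes. At an adjusted p under 0.05 (limma with Benjamini-Hochberg adjustment over all probe sets), 4 of 31042 probe sets were called (0.0129%), of which 3 rose in L18 (0.00966%) and 1 fell (0.00322%). At an unadjusted p under 0.05 the count was 1459 (4.7%), of which 915 were higher (2.95%) and 544 lower (1.75%). The 2 groups overlapped at each of the 4 called probe sets. The count rested on single animals: without 1 L18 animal it was between 0 and 5, and it was 0 without animal 89, 90, 91, 92, 93 or 94 (864 to 1718 at an unadjusted p under 0.05), 1 without animal 88, and 2 without animal 96 or 97. It was 155 with no S code covariate, 46 within S8, none of them among the 4, and 295 against the unweighted mean of the other 21 L codes. The unweighted fit gave each L code its own mean. Its p-values, here and below, measure the spread of animals within L codes and leave out the spread among codes. The count was 0 in limma when only S5 to S10 were used (1572 at an unadjusted p under 0.05). It was also 0 with the L code as a random block (828 at that level). That fit gave all probe sets the same correlation within L codes, 0.03. L18 animals thus still counted as nearly separate, also for genes that vary more between codes.

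Most differences had narrow confidence intervals in the main fit. The median standard error of a difference was 0.05, and the median distance from an estimate to the edge of its 95% confidence interval was 0.11. These intervals take the animals of 1 L code as independent, and are too narrow where such animals are alike. For 29282 probe sets (94.3%) the whole interval lay within a 1.25-fold difference in either direction, for 30716 (98.9%) within 1.5-fold and for 31000 (99.9%) within 2-fold. No estimate was beyond 2-fold, 12 were beyond 1.5-fold and 154 beyond 1.25-fold. The lowest and highest estimates belonged to genes that varied widely among all animals and did not pass the test. The synaptic vesicle protein gene Sv2b had -0.83 (unadjusted p = 0.0921) and the cadherin gene Cdh22 had 0.81 (unadjusted p = 0.135), and both were picked for the size of their estimate.

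**Figure D1:**
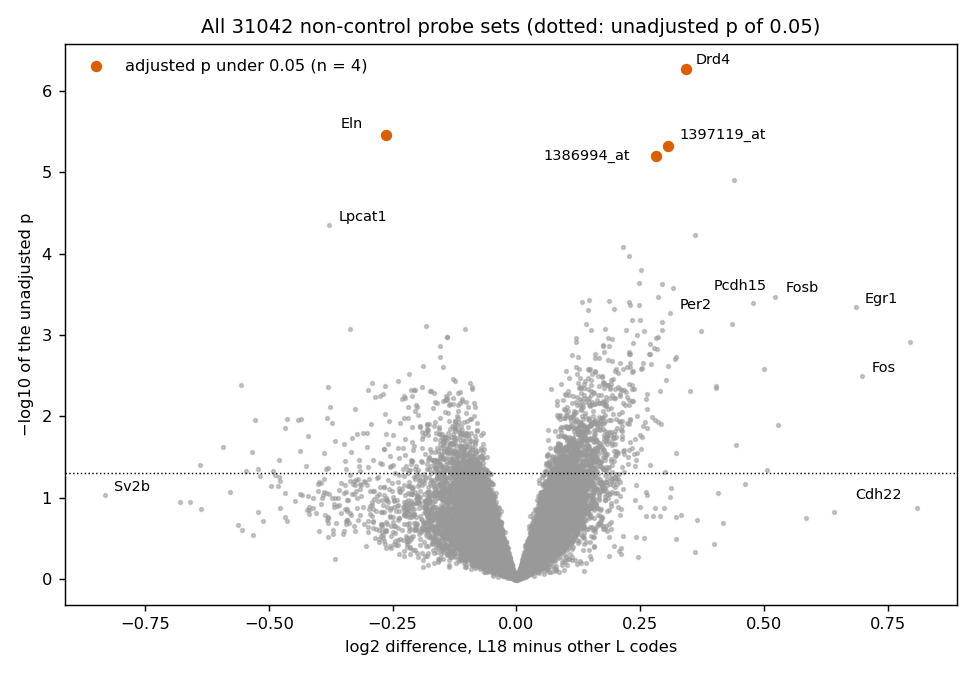
Each point is 1 of the 31042 non-control probe sets, with the log2 difference of L18 minus the other L codes on the x axis and −log10 of limma's unadjusted p on the y axis, and orange points are the 4 past an adjusted p of 0.05. All estimates lie between -0.83 and 0.81, and the widest ones are not among the called probe sets.

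Drd4 was the gene with the clearest difference, and it was higher in L18. It encodes the dopamine D4 receptor, which lowers cyclic AMP and is made in photoreceptors, where in rodents its transcript follows a daily rhythm. Its probe set 1394385_s_at had a lowest, median and highest level of 8.63, 8.93 and 9.17 in L18. In the other L codes the lowest and median levels were 8.04 and 8.59, and the highest lay just under the highest L18 animal. The L18 range covers the upper part of the other range, and 61 of the other animals lay below the lowest L18 animal. Means were 8.90 ± 0.16 in L18 and 8.59 ± 0.19 in the other L codes (SD over 11 animals and over all the others). The difference was 0.34 with a standard error of 0.06 and a 95% confidence interval of 0.22 to 0.47, which is 1.27-fold (adjusted p = 0.0171, limma). All 11 L18 animals were above the mean of the other animals of their S code. Of 14217 genes read by 1 probe set each, Drd4 was the single one past the threshold (0.00703%).

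The excess of Drd4 in L18 was unevenly spread over the animals. Animal 91 was 0.64 above the mean of its S code mates, and animal 90, whose array was rescanned, was 0.52 above it. Animals 93, 92, 94, 89 and 88 were 0.46, 0.40, 0.39, 0.37 and 0.27 above it. The 4 animals of S10, numbers 95 to 98, were 0.21, 0.16, 0.05 and 0.16 above it, so the L18 animals of S10 were nearer to their mates than those of S5 to S9. The other pair of probe sets for the gene had the same sign without passing the test. The difference was 0.23 at 1387520_at (adjusted p = 0.829, limma) and 0.20 at 1394384_at (adjusted p = 0.895, limma), with 10 and 9 of 11 L18 animals above their S code mates. Without 1 L18 animal, the difference at 1394385_s_at stayed between 0.31 and 0.36 and was past the threshold in 5 of 11 fits (adjusted p 0.00448 to 0.189). It lost the threshold without animal 89, 90, 91, 92, 93 or 94 (adjusted p = 0.0778, 0.0679, 0.189, 0.0612, 0.0674 and 0.0652).

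The promoter of Drd4 is shown because it belongs to the one gene that passed the test. The sequence is from RefSeq on the plus strand of GRCr8, chr1:205825687-205825986, and runs 5' to 3' over 250 bases before the gene's start and 50 bases after it. Capitals mark the letters TGACG, which are part of the full cyclic AMP response element TGACGTCA.
Drd4 promoter: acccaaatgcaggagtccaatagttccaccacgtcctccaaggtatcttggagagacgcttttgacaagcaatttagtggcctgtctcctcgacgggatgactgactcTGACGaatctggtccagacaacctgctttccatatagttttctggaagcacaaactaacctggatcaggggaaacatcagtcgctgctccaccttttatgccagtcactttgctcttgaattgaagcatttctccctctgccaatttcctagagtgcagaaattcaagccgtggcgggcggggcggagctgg
The letters TGACG stood in 21.2% of 33469 rat promoters of this length, TGACGTCA in 1.83%, the E-box CACGTG in 6.42% and the photoreceptor motif TAATCC in 7.17%, each searched on both strands. Of these 4, the Drd4 window held TGACG alone. A match is a description of letters only.

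Eln fell at 1 of its probe sets. It encodes elastin, the elastic fibre protein of vessel walls and connective tissue. Levels at 1395753_at were 5.66, 5.84 and 6.26 (lowest, median, highest) in L18, against 5.72, 6.09 and 6.57 in the other L codes. All but 1 of the L18 animals were below their S code mates, and the exception, an animal of S10, had the highest L18 level. The difference was -0.26 with a standard error of 0.05 and an interval of -0.37 to -0.16 (adjusted p = 0.0498, limma). The brighter probe set of the gene, 1388111_at, averaged 6.26 ± 0.14 in L18 and 6.33 ± 0.17 in the other L codes, a difference of -0.08 (interval -0.19 to 0.04, unadjusted p = 0.184). By the rule used here Eln is read by that brighter set, so the result at 1395753_at was singled out after its value was seen.

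The other pair of called probe sets had no gene symbol in the annotation used here. They too were singled out after their values were seen. Probe set 1397119_at had 6.97, 7.29 and 7.58 in L18 against 6.58, 7.01 and 7.54 in the other L codes, and all 11 L18 animals were above their S code mates. Its difference was 0.31 (standard error 0.06, interval 0.18 to 0.43, adjusted p = 0.0498, limma). Probe set 1386994_at had 7.09, 7.44 and 7.70 in L18 against 6.77, 7.18 and 7.75 in the other L codes, with 9 of 11 L18 animals above their mates. Its difference was 0.28 (standard error 0.06, interval 0.16 to 0.40, adjusted p = 0.0498, limma). Each of these and the Eln probe set stayed past the threshold in 2 of the 11 fits that left out 1 L18 animal. Those fits were without animals 97 and 98 for Eln (adjusted p 0.00448 to 0.387 over the 11), 95 and 98 for 1397119_at (0.0198 to 0.506), and 96 and 98 for 1386994_at (0.0213 to 0.311).

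**Figure D2:**
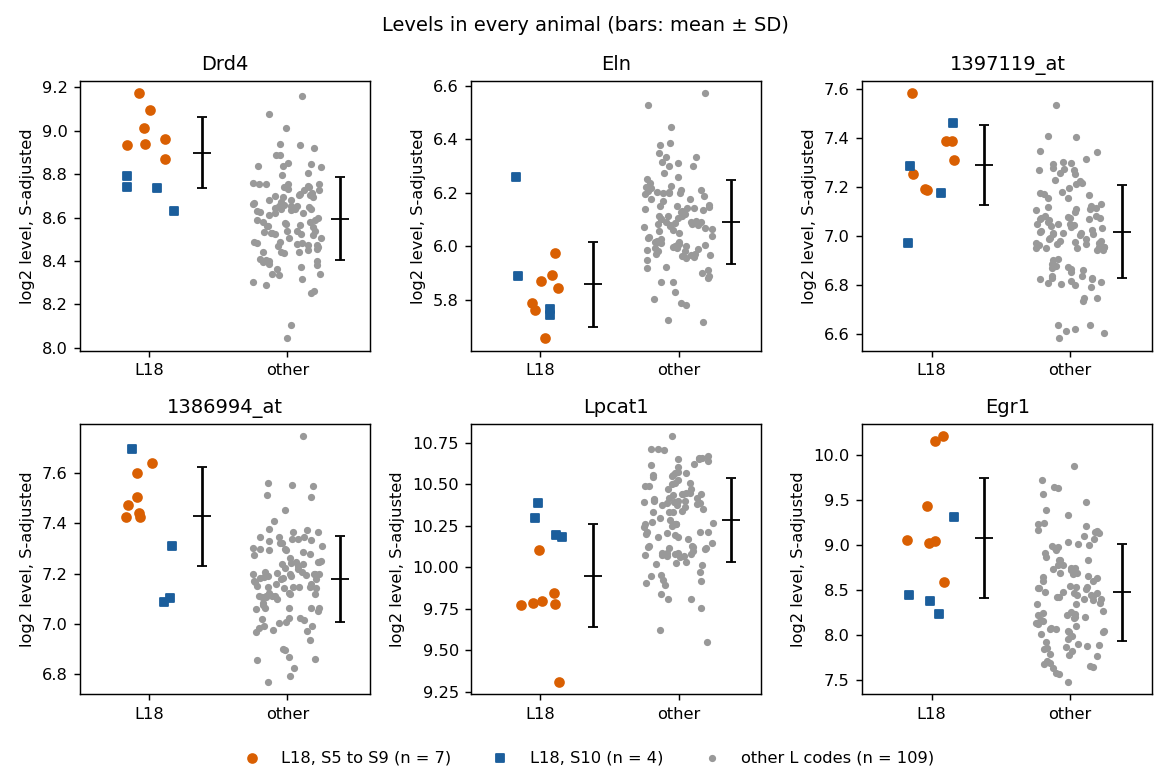
S-adjusted log2 levels of the 4 called probe sets and of Lpcat1 and Egr1, which did not pass the test, in each L18 animal (left, orange circles for S5 to S9 and blue squares for S10) and each animal of another L code (right, grey), with the mean and SD of each group as bars. The groups overlap in every panel, and the blue squares of Drd4 and Lpcat1 lie on the side nearer to the other L codes.

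For several genes the 4 L18 animals of S10 stood at another distance from their S code mates than the 7 of S5 to S9. The mates differed too: of the 9 other arrays of S10, 6 were of L22, 2 of L21 and 1 of L20, and L22 lay in S10 alone, so the S10 animals and the L codes they were set against cannot be told apart. Within single S codes the mean Drd4 difference was 0.27 in S5, 0.37 in S6, 0.52 in S7, 0.52 in S8, 0.43 in S9 and 0.15 in S10. Lpcat1, which encodes a lysophosphatidylcholine acyltransferase that photoreceptors need in mice, showed the same split more plainly. Its difference was -0.50, -0.45, -0.53, -0.66 and -0.57 in S5 to S9 and 0.01 in S10. S-adjusted levels were 10.18 to 10.39 in the 4 L18 animals of S10 and 9.31 to 10.11 in the other 7. Probe set 1386994_at had 0.14 in S10 and between 0.24 and 0.40 elsewhere. For Eln and 1397119_at the S10 value lay inside the range of the other S codes: Eln had -0.23 in S10 and between -0.43 and -0.10 elsewhere, and 1397119_at had 0.26 in S10 and between 0.16 and 0.48 elsewhere. Each of S5 to S9 held 1 or 2 L18 arrays, and the difference between S codes was not tested.

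**Figure D3:**
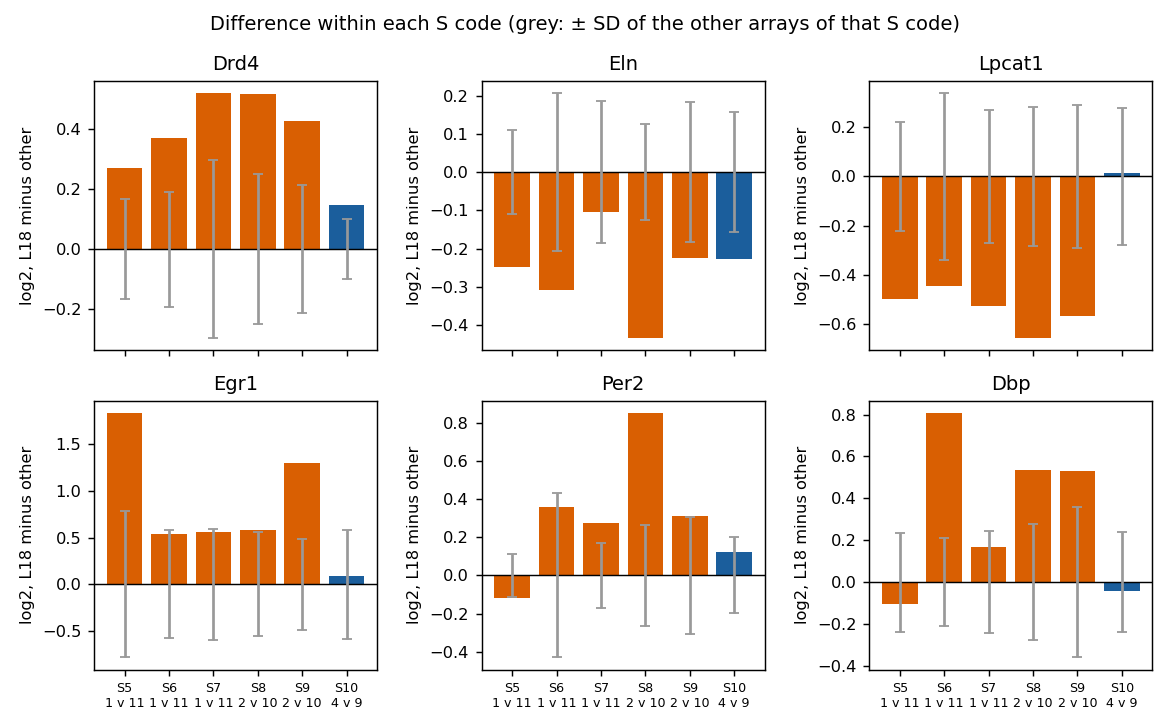
Bars give the log2 difference of L18 minus the other L codes within each S code that holds an L18 array, for 6 genes, with the number of arrays of each group under the bar and the SD of the other arrays as grey error bars around 0. For Lpcat1 the bars of S5 to S9 reach -0.45 or lower and the bar of S10 is at 0.01.

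Among the 22 L codes, L18 lay at or near an end for the called probe sets. They were called for the difference of L18 in these same values, so such a place follows from the call. The L18 mean was the highest for Drd4, 8.90 against 8.84 in L4 and 8.74 in L20, and the lowest code means were 8.40 in L8 and L16. L18 also had the lowest Eln mean at 1395753_at, 5.86, with L12 next to it. It was highest for 1386994_at, 7.43 against 7.36 in L15, and second for 1397119_at, 7.29 against 7.36 in L15. Each of these gaps to the neighbouring code is smaller than the SD among the L18 animals. L14, L15 and L18 held the lowest means of Lpcat1 and Icmt and the highest of Pcdh15. These genes are among those that had varied most between L codes in earlier results of these data. L20 came next for Icmt (7.85) and Pcdh15 (7.40), and was nearer to L18 than L14 was. The lowest Lpcat1 means were 9.92 in L15 and 9.95 in L18, followed by L14, and the lowest means of Icmt, an enzyme that methylates prenylated proteins, were 7.69 in L14, 7.73 in L15 and 7.80 in L18. The highest means of Pcdh15, a cadherin of photoreceptors and hair cells, were 7.53 in L18, 7.70 in L15 and 7.86 in L14.

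**Figure D4:**
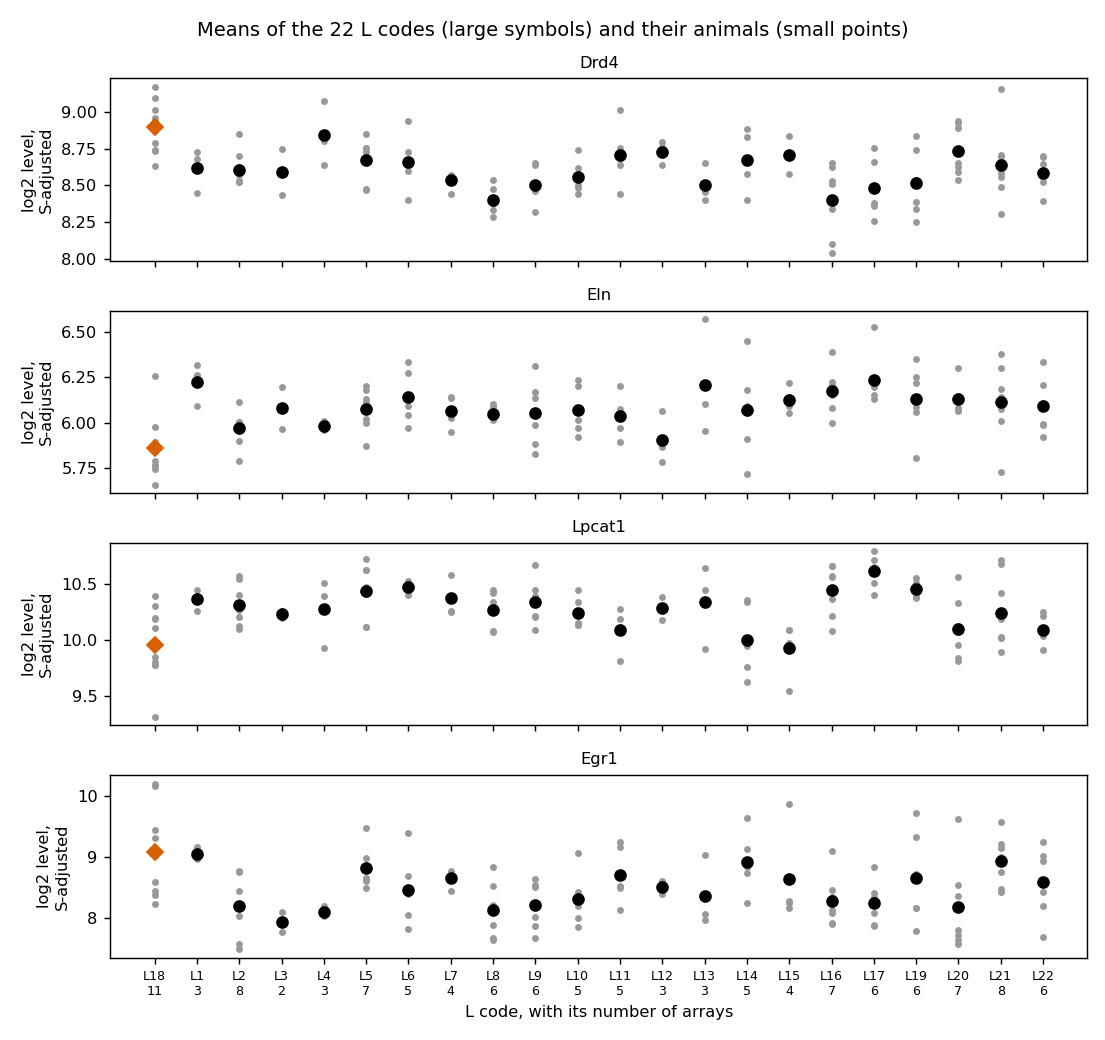
S-adjusted log2 levels of Drd4 (1394385_s_at), Eln (1395753_at), Lpcat1 and Egr1 in every animal (small grey points) and the mean of each L code (large symbols, L18 as an orange diamond at the left, the others in black), with the number of arrays under each code. L18 has the highest mean for Drd4 and Egr1 and the lowest for Eln, next to codes with similar means.

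The 11 genes that followed Drd4 by unadjusted p on the higher side did not pass the adjusted test. The centriole gene Cep128 had 6.29, 6.97 and 7.37 in L18 against 6.07, 6.59 and 7.37 in the other L codes, a difference of 0.36 (adjusted p = 0.265, limma). Prdm1, a repressor that keeps young photoreceptors from becoming bipolar cells in mice, averaged 8.34 ± 0.10 in L18 and 8.14 ± 0.16 in the other L codes, a difference of 0.22 (adjusted p = 0.326, limma). All 11 L18 animals were above their S code mates for Prdm1, by 0.12 in S10 and by 0.18 to 0.37 in the other S codes. The remaining adjusted p-values were 0.371 for Btbd10 (0.23) and 0.603 for the others. Those were Sostdc1, a secreted antagonist of BMP and Wnt signals (0.25), the ciliary transition zone gene Cc2d2a (0.29), Ccdc30 (0.32), the transcription factor gene Fosb (0.52), the deadenylase gene Cnot6 (0.15), the epoxide hydrolase gene Ephx1 (0.19), the secreted phospholipase gene Pla2g1b (0.23) and the kinase gene Snrk (0.13). Against the unweighted mean of the other 21 L codes, 9 of these 11 genes passed, among them Prdm1 (0.26, adjusted p = 0.00104, limma), and Pla2g1b and Snrk did not. Over all 14217 genes that fit called 182. The 11 were picked by p in these same arrays, so their passes are no separate evidence. Cnot6 was the other of these genes for which all 11 L18 animals were above their S code mates, the nearest by 0.0010.

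No gene passed on the lower side, and 12 are named by smallest unadjusted p. Lpcat1 had 9.31, 9.85 and 10.39 in L18 against 9.55, 10.30 and 10.79 in the other L codes, a difference of -0.38 (interval -0.55 to -0.20, adjusted p = 0.231, limma). Icmt averaged 7.80 ± 0.26 in L18 and 8.10 ± 0.29 in the other L codes, a difference of -0.34 (adjusted p = 0.692, limma), and its probe set 1388184_at had -0.29. Against the unweighted mean of the other 21 L codes, 9 of the 12 passed, with differences of -0.62 for Lpcat1 (adjusted p = 6.68e-08, limma) and -0.60 for Icmt (adjusted p = 1.16e-07, limma), and Cdc20, Gcat and Nherf2 did not. The p-values of that fit leave out the spread among L codes, and none of the 12 passed with the L code as a random block. The 12 too were picked by p in these same arrays, so their passes are no separate evidence. Within the main comparison, differences were -0.14 for Znhit2 and for Pip5k1a, which makes the membrane lipid PIP2, and -0.15 for Cdc20, an activator of the mitotic ubiquitin ligase. They were -0.16 for the threonine breakdown gene Gcat, -0.19 for the mitochondrial arginase gene Arg2, -0.13 for the RNA-binding protein gene Dazap1 and -0.12 for the scaffold gene Nherf2. All 11 L18 animals were below their S code mates for Nherf2, the nearest with a difference of -0.0043. The acyltransferase gene Agpat3 had -0.24 and the ceramide synthase gene Cers4 -0.26, which was 0.16 within S10. C11h21orf91 had 6.55, 9.27 and 10.22 in L18 against 7.37, 9.68 and 10.61 in the other L codes, a difference of -0.56 that was -0.27 without animal 92. Against S code mates, Icmt averaged -0.46 in S5 to S9 and -0.07 in S10. In that order Agpat3 averaged -0.32 and -0.05, and C11h21orf91 -0.81 and -0.01. Gcat (-0.11 and -0.25) and Nherf2 (-0.11 and -0.15) went the other way. Of the named genes on both sides, 10 had 19 other probe sets, of which 15 had the same sign and 4 the opposite one. The 4 were a pair for Agpat3 and 1 each for Btbd10 and Cnot6, and at 1372276_at Agpat3 had 0.21.

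Groups of genes were described with 41 lists of pathways and cell types, in which 801 distinct genes were measured. None of these genes passed the adjusted test. Against the unweighted mean of the other 21 L codes 39 of the 801 did, 10 higher and 29 lower, beside 182 of all 14217 genes. Median differences of the lists lay between -0.12 and 0.09, beside a median of 0.0049 over all 14217 genes. Counts at an unadjusted p under 0.05 are given below beside the same share over all genes, which was 5.21% (3.43% higher and 1.77% lower), and they are descriptions with no test of a list. Some genes beyond the first of each list are named after their values were seen.

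Clock genes had unadjusted p-values under 0.05 in both directions. The list of circadian clock genes had 22 measured members, of which 5 were higher and 3 lower at that level, with a median of 0.05. Per2, a repressor arm gene, averaged 7.58 ± 0.33 in L18 and 7.31 ± 0.25 in the other L codes, a difference of 0.31 (adjusted p = 0.635, limma). The clock output factors Dbp and Hlf had 0.28 and 0.09, and the nuclear receptors Nr1d2 and Rorb had 0.15 and 0.32. The activator arm genes Bmal1 and Npas2 had -0.17 and -0.22, and the deubiquitinase gene Usp2 had -0.44. Within S10, 5 of these 8 had the opposite sign: Dbp -0.04, Hlf -0.08, Rorb -0.21, Bmal1 0.04 and Usp2 0.23. The hour at which an animal was killed is not given in the labels, so its part in these values was not tested.

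Immediate early genes, which neurons switch on within minutes of a stimulus, had the widest differences among the lists' unadjusted calls. Of 25 measured members, 22 differences were positive and 3 negative, beside 49.5% positive over all non-control probe sets, and such genes can move together. The median was 0.07, and 5 unadjusted p-values were under 0.05, all on the higher side. Egr1 had 8.23, 9.04 and 10.21 in L18 against 7.48, 8.44 and 9.87 in the other L codes, a difference of 0.69 or 1.61-fold (interval 0.31 to 1.06, adjusted p = 0.604, limma). Fos had 6.25, 6.74 and 9.37 in L18 against 4.72, 6.75 and 8.54 in the other L codes, so the medians were alike while 2 L18 animals, 88 and 95, stood above every other animal. Its difference was 0.70, and it was 0.50 without animal 88 and 0.52 without animal 95. Fosb had 4.06, 4.78 and 7.13 in L18 against 3.68, 4.56 and 5.46 in the other L codes, with the top level in animal 95. The Fosb difference of 0.52 became 0.33 without that animal. Nr4a1 had 0.23 and the phosphatase gene Dusp1 0.24. The L18 animals of S10 stood 0.09 above their mates on average for Egr1, against 0.96 for those of S5 to S9, and for Dusp1 the means were -0.06 in S10 and 0.37 in S5 to S9. The other genes at the unadjusted level showed less of this split or none. Means in S10 and in S5 to S9 were 0.42 and 0.83 for Fos, 0.21 and 0.24 for Nr4a1, and 0.56 and 0.49 for Fosb. Egr1 passed against the unweighted mean of the other 21 L codes, at 1.16 (adjusted p = 7.28e-05, limma).

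Photoreceptor genes were mixed in sign. Of 20 measured rod phototransduction genes, 1 was higher and 2 were lower at the unadjusted level (median -0.01). Rhodopsin kinase Grk1 had 7.79, 8.62 and 8.99 in L18 against 7.86, 8.85 and 9.57 in the other L codes, a difference of -0.38 with 10 of 11 animals below their S code mates (adjusted p = 0.895, limma). Against those mates Grk1 averaged -0.51 in S5 to S9 and -0.08 in S10. Gucy2d, a membrane guanylate cyclase, had -0.19 and the G protein subunit Gnb5 had 0.08. Among 11 cone genes the one such difference was 0.29 at cone arrestin Arr3 (median 0.06). Of 9 photoreceptor transcription factors, 4 were at that level: Prdm1 at 0.22, Rorb at 0.32 and Esrrb at 0.21, with Mef2d at -0.20 (median 0.04). Of 14 outer segment genes, Lpcat1 and Pcdh15 were at that level with opposite signs (median 0.03). Pcdh15 had 6.92, 7.59 and 8.05 in L18 against 6.20, 7.08 and 8.06 in the other L codes, a difference of 0.48 (adjusted p = 0.603, limma), and was positive in each of the 6 S codes.

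Other retinal lists held few differences. Of 29 genes of the photoreceptor cilium, Cc2d2a had 0.29 and the transport gene Ift80 -0.10 (median 0.03). Of 16 visual cycle genes, the retinol dehydrogenases Rdh11 and Rdh12 had -0.14 and -0.15 (median -0.02). The inner retina list of 20 had Gad1, which makes GABA, at 0.12 and Th, which makes the dopamine precursor, at 0.11 (median 0.03). Of 12 ganglion cell genes the one at the unadjusted level was melanopsin Opn4. It had 6.16, 6.53 and 7.05 in L18 against 5.29, 6.28 and 7.35 in the other L codes, a difference of 0.40 (interval 0.13 to 0.68, adjusted p = 0.895, limma). All 11 L18 animals were above their S code mates for Opn4, the nearest by 0.011.

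Skeletal muscle genes mark the extraocular muscles that move the eye. All 36 measured ones had a positive difference, beside 49.5% of all non-control probe sets, and such genes can move together. The median of the list was 0.09, with a range of 0.01 to 0.29, and 5 of its genes had an unadjusted p under 0.05. These were Tnnt1 at 0.29, Tnnc1 at 0.19, Casq1 at 0.24, Myh7 at 0.25 and Myl1 at 0.10, where Tnnt1, Tnnc1 and Myh7 belong to slow fibres. The mean of the list, set to 0 over all animals, was -0.19, 0.09 and 0.36 (lowest, median, highest) in L18, against -0.45, -0.01 and 0.32 in the other L codes. L18 animals thus spread over most of the range of the others, and 8 of 11 were above the median of the others. The part of muscle in the other values was not tested.

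Cell division genes leaned the other way. Of 28 measured members of the proliferation list, 26 differences were negative and 2 positive, with a median of -0.07. Over all non-control probe sets 49.5% were positive, and genes of this list can move together. Those at the unadjusted level were Cdc20 at -0.15, the topoisomerase gene Top2a at -0.17, the cyclin gene Ccnb2 at -0.16, the kinetochore gene Cenpf at -0.18 and the thymidylate synthase gene Tyms at -0.18. The list mean was -0.29, -0.06 and 0.02 in L18, against -0.38, 0.01 and 0.28 in the other L codes. The highest L18 animals therefore lay just above the median of the others, and 2 of 11 L18 animals were above it.

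Stress, immune and metabolic lists had members of both signs. Of 34 genes of amino acid and endoplasmic reticulum stress, Atf4, the factor that leads this response, had -0.14, its target Trib3 -0.47 and Aldh1l2 0.14 (median -0.04). Interferon response genes (28 measured) had Bst2 at -0.32 and Ifih1 at -0.11 (median -0.07). Of 28 fatty acid genes, Angptl4, Ucp3, Elovl6 and Ppara had -0.23, -0.20, -0.26 and -0.15, and Cpt1b had 0.15 (median -0.02). The splicing list of 37 had 5 lower genes, from Srsf6 at -0.13 to Prpf3 at -0.08 (median -0.02). Of 17 glucocorticoid response genes, the receptor gene Nr3c1 had 0.13 and Dusp1 0.24 (median -0.02). For Nr3c1 all 11 L18 animals were above the mean of their S code mates, the nearest by 0.0056. Oxidative phosphorylation (37 measured) had Cox6c at 0.07 and Ndufa1 at 0.09 (median 0.03), the proteasome (31) had Psmd4 at -0.09 and Adrm1 at 0.12 (median -0.02), and heat shock (17) had Hsph1 at -0.11 (median 0.0040).

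Supporting tissues had at most 1 gene at the unadjusted level in a list. It was Tagln at -0.17 in smooth muscle and iris (11 measured), Sox10 at 0.14 in melanocytes (11), Pdgfra at 0.11 in fibroblasts and sclera (25), Tie1 at 0.13 in vessels (16) and Dsg1 at -0.16 in surface keratinocytes (18). A further 14 lists had none. Their medians were 0.03 for photoreceptor and bipolar synapses, 0.0045 for Müller glia, 0.0034 for microglia and complement, -0.01 for lymphocytes, -0.02 for lens, -0.01 for corneal epithelium, 0.02 for lacrimal and Harderian glands and 0.0069 for red blood cells. They were 0.0037 for MHC class I, 0.0036 for MHC class II, -0.0041 for oxidative stress, 0.02 for hypoxia and glycolysis, -0.04 for cholesterol synthesis and -0.01 for ribosomal proteins. Of 21 lens genes, 19 had a negative difference, none beyond -0.10. The share of positive differences over all non-control probe sets was 49.5%, and lens genes can move together.

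A pair of lists came from earlier results of these data and cannot be read as independent. The 12 genes that had varied most between L codes held 3 higher and 5 lower genes at the unadjusted level (median -0.12). Beside Lpcat1, Icmt, Cers4, Grk1, Cc2d2a, Pcdh15 and Arr3 they held Ptprn, a protein of secretory granules, which averaged 8.30 ± 0.13 in L18 and 8.64 ± 0.45 in the other L codes. All 11 L18 animals were below their S code mates for Ptprn, and its difference was -0.38 (adjusted p = 0.988, limma). Of 25 genes whose levels had formed clusters like those of 1 segregating locus, the lysosomal enzyme gene Gla at -0.18 was the one at the unadjusted level (median -0.0078). Differences in this list ran from -0.83 to 0.81, and their standard errors were wide, 0.49 for Sv2b and 0.54 for Cdh22.

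**Figure D5:**
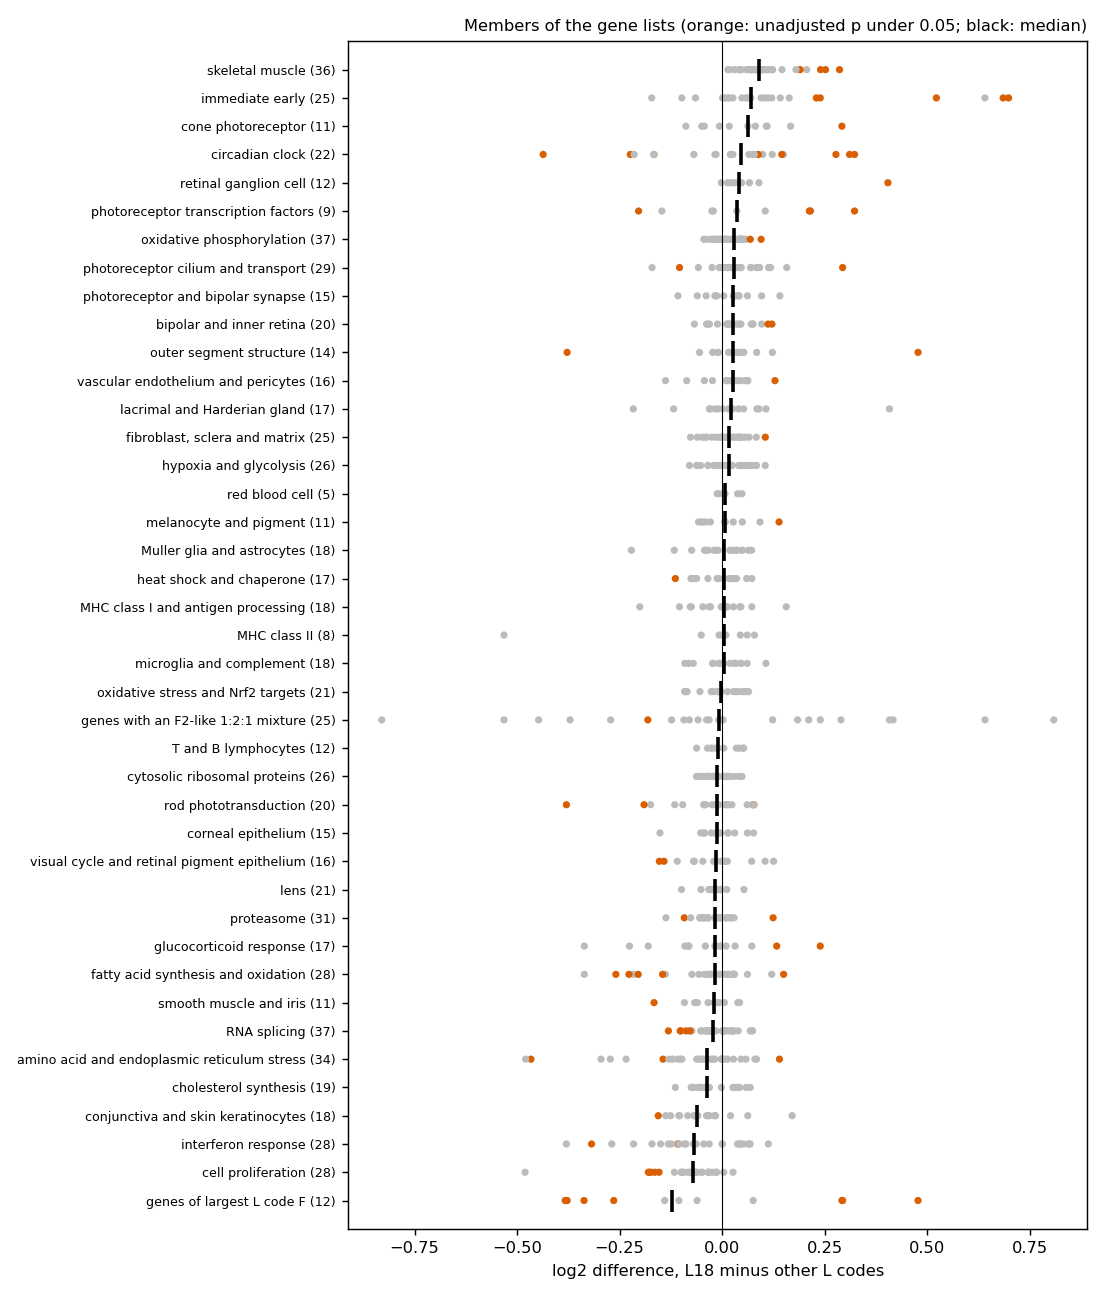
Each point is 1 gene of a list, placed by its log2 difference of L18 minus the other L codes, with orange for an unadjusted p under 0.05, a black mark at the list's median, and the number of measured genes in brackets. Every skeletal muscle gene lies right of 0, 26 of 28 proliferation genes lie left of it, and list medians stay between -0.12 and 0.09. Over all non-control probe sets 49.5% of the differences were positive, and genes of 1 list can move together.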

How the data were processed

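The authors deposited 1 log2 value for each probe set and array, made by RMA per the submitters' processing notes. RMA removes background, aligns the arrays and summarises the probes, so a shift shared by most genes may be hidden, and a probe that binds 1 strain's transcript poorly can look like a change in level. No version is given in the sources used here.

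Of 31099 probe sets, 57 were controls. Of the rest, 20826 had 1 symbol in the platform's annotation, updated through RefSeq, 436 had several and 9780 had none. Differences were fitted with limma 3.58.1 in R 4.3.3 (lmFit, eBayes) on all 120 arrays, with L18 as coefficient and the S code as factor, and adjusted by Benjamini-Hochberg over all 31042 probe sets with a threshold of 0.05. No filter was set. The p-values measure the spread between animals and single arrays together, and more arrays would narrow the intervals. The smallest SD of the difference between an L18 array and another was 0.19, so no array was counted again. The animal numbers pair no samples. Array measures were compared with 100000 permutations within S codes. The fit was also run on simulated arrays drawn independently around S code means. As those had no likeness within an L code, the run cannot tell whether the p-values hold where animals of 1 code are alike.

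A gene was read by its probe set of highest mean. Named were, in each direction, 12 genes past the threshold or else of smallest unadjusted p, and, by the same rule, the 1 or 2 genes of smallest p in a list. Beyond the rule, further list members with an unadjusted p under 0.05 are named, and lists without one are given by their median. Counts of L18 animals above or below their S code mates are given for genes picked by p. Such counts are therefore no separate evidence, and their share over all probe sets was not counted. The comparison, its members and the lists were chosen with earlier results of these data known. The alternatives were filters, other covariates, single S codes, arrays left out, array centring and weights, other treatments of the L codes and other thresholds.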

Additional observations from a re-analysis of the deposited data

How the results depend on the processing

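The count of 4 called probe sets was 4 after probe sets with a mean under the 25th percentile were dropped and without animals 63 and 15, 3 with array medians subtracted or a trended robust prior, and 5 at an adjusted p of 0.1. It was 0 at an adjusted p of 0.01, in S5 to S10 alone, within S10 (1291 at an unadjusted p under 0.05) and with the L code as a random block. It was 1 over 1 probe set per gene. It was 2 within S9, without the 3 rescanned arrays, with actin and GAPDH covariates and with 5 principal components. None of the 4 was among the calls within S8 or S9, and 1 was among the 2 with the actin and GAPDH covariates. The count was 7 with array weights, 46 within S8 (31 higher, 15 lower), 155 with no S code covariate (110 higher, 45 lower) and 295 against the unweighted mean of the other 21 L codes (186 of them lower). Leaving out 1 L18 animal gave 0 to 5. Leaving out an S code, chosen after seeing the data, gave 0 without S5, S8 or S9 (1138, 708 and 2236 at an unadjusted p under 0.05), 2 without S6 and 3 without S7 or S10. Drd4 passed in 19 of 33 alternatives, with differences of 0.15 to 0.52 and adjusted p-values of 5.28e-05 (unweighted mean) to 0.9999 (within S10). Against the unweighted mean, 35 named probe sets that had not passed did so, among them Lpcat1 (-0.62), Egr1 (1.16), Pcdh15 (0.63) and Icmt (-0.60), and 27 did with no S code covariate. Signs turned within S10 for Ephx1 -0.024, Lpcat1 0.015, Cers4 0.16, Rdh11 0.079, Cd44 0.041, Ehf 0.0028, Dsg1 0.040, Pdgfra -0.033, Cd74 -0.13, Atf4 0.021, Hsph1 0.070, Angptl4 0.020, Rps3 0.0042, Hnrnpu 0.054, Dusp1 -0.057, Bmal1 0.045, Trib3 0.027, Rorb -0.21, Esrrb -0.17, Aldh1l2 -0.013, Hlf -0.082, Myh7 -0.074, Usp2 0.23 and Dbp -0.043. They turned within S9 for Pip5k1a 0.049, Agpat3 0.00051, C11h21orf91 0.31, Ehf 0.0014, Car6 -0.0089, Bst2 0.045, Tap2 0.18, Sod1 -0.028, P4ha1 -0.060, Rps3 0.022 and Casq1 -0.019, and within S8 for Cd4 -0.064, Dnase2b 0.13, Slc4a1 -0.027 and Tyms 0.041. Slc4a1 -0.00079 turned with no S code covariate, and so did Slc4a1 without animal 89 or S6, its values without 1 L18 animal running between -0.0023 and 0.060. The other probe sets followed through these alternatives kept their sign. Some genes named above were not followed, among them Rdh12, Th, Ift80, Sv2b and Cdh22. S5, S6 and S7, with 1 L18 array each, were not fitted alone. In S6, Pla2g1b (-0.21), Btbd10 (-0.0080) and Snrk (-0.00079) were among those below 0. Of 1353 list medians under an alternative, 36 moved by more than the spread between L18 animals, 27 of them within S8, S9 or S10. The causes were not tested, and S8, S9 and S10 hold at most 4 L18 arrays each. No paired analysis was possible because the animal numbers of L18 and the other L codes do not overlap.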
